A study of Drosophila melanogaster with 4 samples.

Results

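Chromosome arm 3L, the left arm of the Drosophila melanogaster chromosome 3, carried 1353 of the 6587 regions bound by ORC2 in the authors' combined list (20.5%). The members are all entries of that list placed on 3L, and no measured value was used to choose them. Replicate 1 had 1709 peaks on this arm and replicate 2 had 2079. Salivary glands of wandering larvae of stage L3 were cross-linked and their chromatin precipitated with a polyclonal rabbit antibody to ORC2. The strain of both libraries is labelled SuUR mutant, with an outcross and a transposon tagged with GFP named in the strain entry, and each library came from its own chromatin extraction. The labels do not say that the extractions came from separate animals, so agreement between the replicates may be technical. An ORC2 precipitation and an input, each labelled as wild-type Oregon-R and as the second channel of one of these extractions, were not analysed here, so every value describes the mutant-labelled glands alone and no genotype was compared.

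ORC2 is a subunit of the origin recognition complex, which binds DNA where replication can start and on which the replicative helicase is loaded. Larval salivary gland cells copy their DNA many times without dividing and so build polytene chromosomes. In these chromosomes the heterochromatin next to the centromeres and a set of late-replicating stretches within the arms stay underreplicated. The SuUR protein, whose gene lies on 3L in RefSeq (genome release 6), is needed for that underreplication. The same arm also holds the genes Cp15, Cp16, Cp18 and Cp19, a cluster of eggshell protein genes that is amplified in ovarian follicle cells and is a classical model of metazoan replication origins. The deposited lists give positions in release 5.1 of the FlyBase genome, and no positions were converted, so none of these genes could be set against the regions below. No genome of this release was used here, and the regions are therefore given by position and by the authors' identifiers, without sequence.

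The regions were not evenly spread from the telomeric end of the arm, position 1, to its centromeric end. Most of the arm carried alternating dense and sparse stretches. The bin from 17 to 18 Mb was the most crowded, and beyond 22 Mb the regions became few. Over the 24.5 Mb reached by any peak, the density was 55.2 regions per Mb (95% exact Poisson interval 52.3 to 58.2), and the regions covered 2.93% of the arm. Up to 22 Mb the density was 59.6 per Mb (56.5 to 63.0), and beyond that point it was 16.2 per Mb (11.6 to 21.98). These intervals cover counting error only and treat regions as independent, which neighbouring regions are not.

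Among the 22 bins of 1 Mb up to 22 Mb, the number of combined regions ran from 36 (10 to 11 Mb) over a median of 62.5 to 91 (17 to 18 Mb). Replicate 1 had between 46 and 124 peaks per bin and replicate 2 between 69 and 122, and in both lists the bin from 17 to 18 Mb ranked first. The fullest bins after it in the combined list were 9 to 10 Mb with 74 regions, 21 to 22 Mb with 73 and 3 to 4 Mb with 72. Their exact intervals overlapped that of the first, which ran from 73.3 to 112. Sparse bins stood partly in groups, with 42 to 46 regions in each of the bins between 4 and 8 Mb and 44 and 51 in the bins from 13 to 15 Mb. The sparse bins 2 to 3 Mb (43 regions) and 10 to 11 Mb (36) lay between fuller ones. Bins with more regions also tended to have higher median scores, with a Spearman's rho across these 22 bins of 0.50 for combined regions and of 0.54 and 0.51 for the peaks of replicates 1 and 2. The score is the peak caller's own value, and the lists state no unit for it. These bins share their libraries, so the coefficients are a description.

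**Figure D1:**
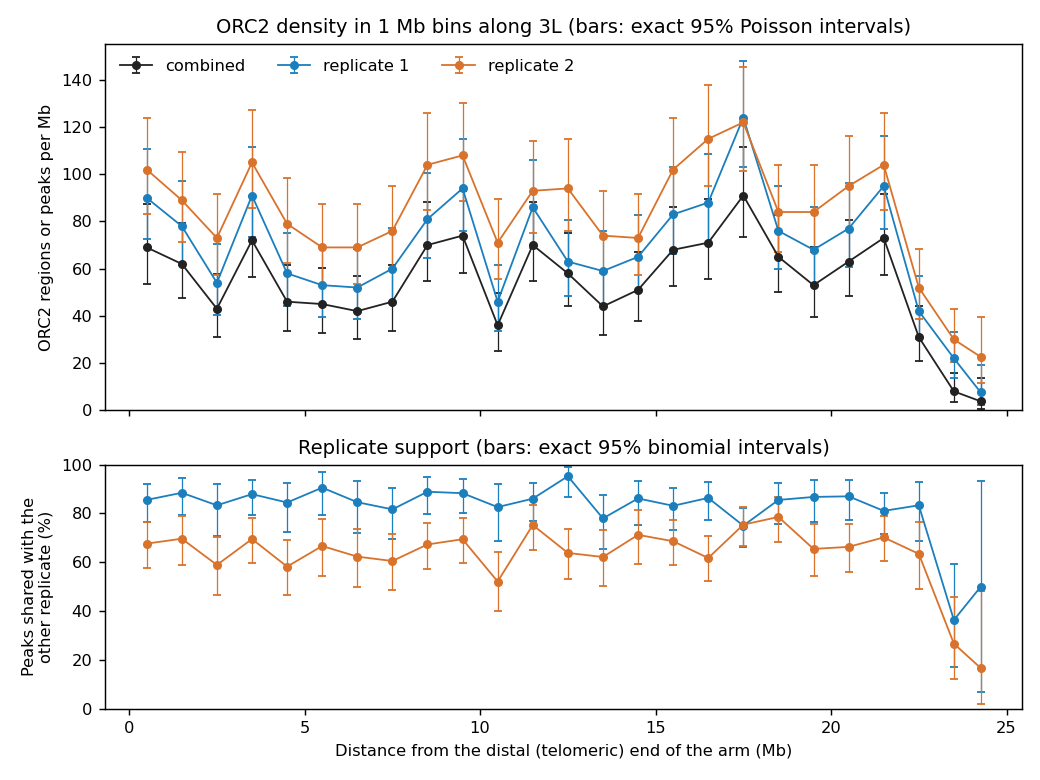
ORC2 regions of the combined list (black) and peaks of replicates 1 and 2 (blue, orange) per Mb in bins of 1 Mb, against the distance from the telomeric end of 3L in Mb, and below it the percentage of each replicate's peaks that overlap a peak of the other. Bars are exact 95% Poisson and binomial intervals, and the bin from 17 to 18 Mb has 91 combined regions while 8 lie from 23 to 24 Mb.

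Windows of 100 kb were also unevenly filled. Of 245 whole windows, 38 held no combined region and 19 held no peak of either replicate, while 56 windows with 10 or more regions held 678 of the 1353. The variance of the counts was 3.73 times their mean, and it was 5.22 times in replicate 1 and 5.09 times in replicate 2. Up to 22 Mb alone it was 3.39 times the mean. Window counts of the replicates followed each other (Spearman's rho 0.94 over 245 windows, which share the tissue and the peak caller). The fullest window was 17900001 to 18000000 with 24 regions, followed by 15500001 to 15600000 with 18 and 9300001 to 9400000 with 17. The window 17600001 to 17700000 also held 17, and 11200001 to 11300000 held 16. Each of these windows had between 18 and 41 peaks in either replicate.

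Neighbouring regions often stood close together. The median distance to the nearest other region was 2309 bp, and 444 regions (32.8%) had a neighbour within 1 kb. At the other extreme, 18 regions (1.33%) had none within 50 kb. Joining regions at most 10 kb apart gave 488 runs, of which 191 were a single region. Runs of 5 or more regions numbered 87 and held 600 regions (44.3%). The longest run, from 17550389 to 17617339, held 21 regions within 67.0 kb. It was met by 31 peaks of replicate 1 and 24 of replicate 2. The next longest, from 17981140 to 18023811, held 14 regions, and that from 17952836 to 17971071 held 13 within 18.2 kb. Thus the 3 longest runs of the arm all touched the crowded megabase.

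The stretch from 17 to 18 Mb was 1.70 times as dense as the rest of the arm (95% exact interval 1.36 to 2.10). The ratio was 1.84 in replicate 1 (1.52 to 2.21) and 1.47 in replicate 2 (1.21 to 1.76). The stretch was singled out with its density known, so these ratios are descriptions and not tests. Its regions covered 4.41% of the sequence, the highest value of the 22 bins, where the lowest was 2.17%. The nearest neighbour was at a median of 783 bp. The regions themselves were not broad: their median width was 407 bp (quartiles 249 to 614), against 428.5 bp (271 to 673.5) for all regions up to 22 Mb, and 4 of the 91 reached 1 kb. Their median score of 2.19 (1.86 to 2.77) stood beside 2.06 (1.77 to 2.50) up to 22 Mb. The middle parts of these score distributions overlap.

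Within this megabase the regions fell into separate groups rather than filling it. By 100 kb window the counts from the telomeric side were 10, 0, 2, 3, 13, 15, 17, 1, 6 and 24. The window 17100001 to 17200000 had no peak in either replicate. It lay within a stretch of 186.6 kb without a combined region that ended at ORC3431 (17231195 to 17231769). A second such stretch, 132.2 kb long, separated the group ending at ORC3480 from that starting at ORC3481 (17795105). The window from 17900001 alone supplied 24 of the 91 regions, and without it the rest of the megabase was still 1.39 times as dense as the rest of the arm (1.07 to 1.78, chosen after seeing the data).

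The window from 17900001 to 18000000 also held many peaks that one library gave and the other did not. Replicate 1 had 39 peaks there, 15 of them without a partner, and replicate 2 had 41, 16 of them without a partner. On the whole arm 268 of 1709 replicate 1 peaks and 708 of 2079 replicate 2 peaks had no partner. The window was thus near the arm's share in replicate 2 and above it in replicate 1. Merging all peaks of the window gave 55 separate regions, of which 24 held both replicates, beside 1353 of 2329 on the arm. Most of the unpartnered peaks lay near a peak of the other library: 14 of the 15 in replicate 1 and 16 of the 16 in replicate 2 were within 2 kb of one, at median distances of 351 and 285 bp. Over the whole arm, 78.7% and 58.6% of the unpartnered peaks were that near. Peaks stand close together in so full a window, so this nearness is no measure of agreement. The unpartnered peaks of the window were narrow, with median widths of 73 and 41 bp, and 6 and 8 of them were shorter than the 36 nt reads. Unpartnered peaks were narrow on the whole arm too, with median widths of 65 and 88 bp in replicates 1 and 2. There, 100 of 268 and 194 of 708 were shorter than the reads.

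The crowded megabase was the sole bin of the 25 in which replicate 1 had at least as many peaks as replicate 2 (124 against 122). Replicate 1 peaks without a partner were 3.08 times as dense there as elsewhere on the arm (2.05 to 4.49). For replicate 2 the ratio was 1.04 (0.697 to 1.50). Much of this rested on the fullest window: without it the ratios were 1.77 (0.993 to 2.93) in replicate 1 and 0.540 (0.294 to 0.912) in replicate 2. In the whole megabase 75.0% of replicate 1 peaks were shared (66.4 to 82.3), the lowest share among the bins up to 22 Mb. The median of these bins was 85.8%. Of replicate 2 peaks 75.4% were shared (66.8 to 82.8), above the median bin at 67.0% and below the highest at 78.6%.

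**Figure D2:**
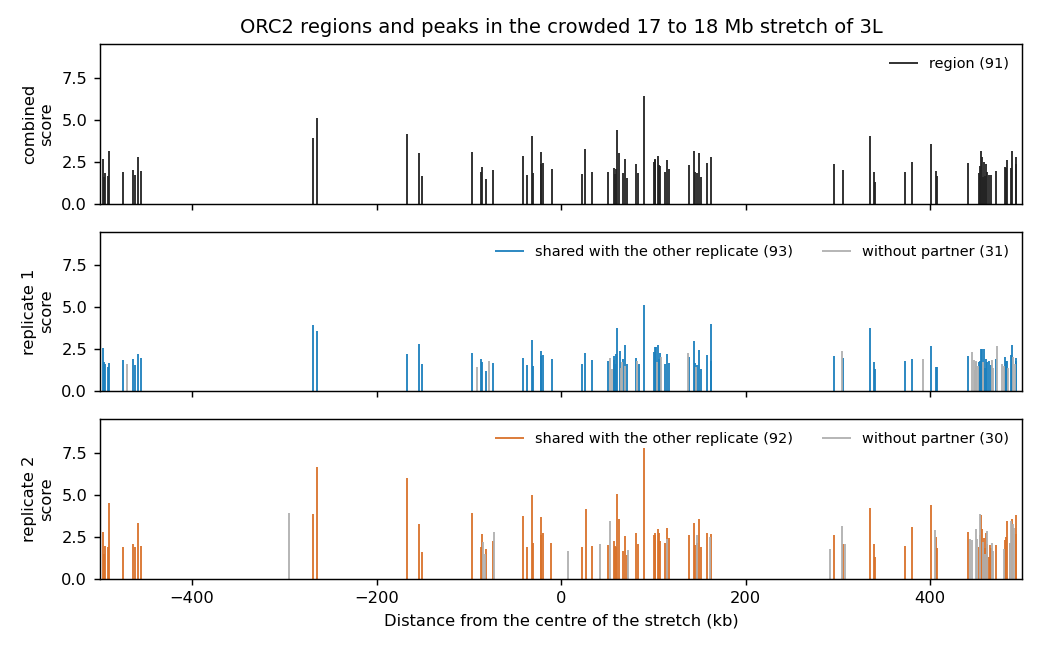
Scores of combined regions, replicate 1 peaks and replicate 2 peaks between 17 and 18 Mb of 3L, against the distance in kb from the centre of that stretch; grey lines mark replicate peaks without an overlapping peak in the other library. The regions stand in groups separated by empty stretches, and the group at the right edge holds 24 of the 91 regions.

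The highest-scoring regions of the stretch lay outside its densest window. ORC3463 (17589946 to 17590391) scored 5.11 in replicate 1 and 7.76 in replicate 2 and was eighth on the whole arm. ORC3432 (17235476 to 17235722) scored 3.55 and 6.63, and ORC3456 (17560371 to 17560628) scored 3.76 and 5.04. ORC3433 (17332345 to 17332534) scored 2.23 and 5.997, and ORC3483 (17834152 to 17834677) scored 3.78 and 4.24. All 5 scored higher in replicate 2, as did 1192 of the 1353 regions of the arm. The widest region there, ORC3502 (17962788 to 17964937, 2150 bp), scored 1.81 in replicate 1 and 1.65 in replicate 2, ranks 628 and 1213 among the 1353 regions of the arm, counted from the highest score.

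Long empty stretches broke up the arm between its dense parts. There were 46 gaps of at least 100 kb between neighbouring combined regions, whose median length was 149 kb. Together they took up 8.31 Mb, which is 33.9% of the arm. For parts of the arm, each gap was counted whole in the stretch that holds its midpoint, so these shares are approximate. Up to 22 Mb, 38 such gaps came to 28.4%. In that part they were most frequent from 10 to 15 Mb, where 12 gaps came to 41.2% of the length. The values were 24.4% (8 gaps) from 5 to 10 Mb and 29.6% (9 gaps) from 15 to 20 Mb. From 20 to 22 Mb a single gap of 169.8 kb was found. A further 65 gaps were between 50 and 100 kb long and added 4.44 Mb.

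Some long blocks had no gap of this size. The first block ran from the telomeric end to 1971456 and held 131 regions, starting with ORC2454 at 72262. Between 7634383 and 9127993 there were 99 regions, and between 20704673 and 21946969 there were 89. Their densities were 66.4, 66.3 and 71.6 per Mb.

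**Figure D3:**
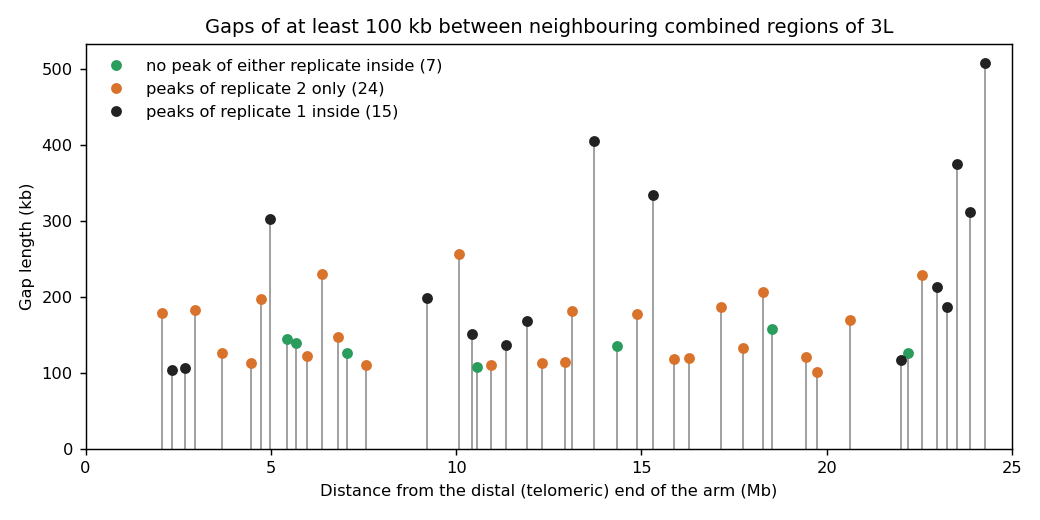
Length in kb of the 46 gaps of at least 100 kb between neighbouring combined regions of 3L, against the distance of their midpoint from the telomeric end in Mb; colour shows whether replicate peaks lay inside. Gaps over 300 kb occur near 5, 14 and 15 Mb and 3 times beyond 23 Mb, and 7 gaps hold no peak of either replicate.

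The longest gap up to 22 Mb ran from 13506822 to 13912742 (405.9 kb) and held 1 peak of replicate 1 and 2 of replicate 2. Its borders were ORC3215, with replicate scores of 1.36 and 2.10, and ORC3216, with 1.22 and 2.11. Next came the gap from 15156841 to 15491874 (335.0 kb), with 1 peak of each library and with ORC3302 and ORC3303 on its borders. The gap from 4826109 to 5128996 (302.9 kb) held 1 and 3 peaks and lay between ORC2745 and ORC2746. No border of these gaps over 300 kb scored above 2.52 in the combined list, beside an upper quartile of 2.49 for the arm. The highest was ORC3303, which scored 1.59 in replicate 1 and 3.45 in replicate 2.

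The other gaps of 200 kb or more in this part of the arm held no replicate 1 peak, which was so in 29 of the 38 gaps up to 22 Mb. That from 9961765 to 10218205 (256.4 kb, 0 and 4 peaks) ended at ORC3023, which scored 3.68 in replicate 1 and 6.56 in replicate 2 while its other border, ORC3022, scored 2.40 and 2.85. That from 6257838 to 6488646 (230.8 kb, 0 and 2 peaks) began at ORC2806, with 2.17 and 4.93, and ended at ORC2807, with 1.60 and 1.76. The gap from 18184183 to 18391365 (207.2 kb, 0 and 1 peaks) lay between ORC3531 and ORC3532 on the centromeric side of the crowded megabase. The next region after ORC3532 was ORC3533, which stood alone, with 61.6 kb free before it and 157.3 kb after it.

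Peaks of a single library also lay inside the gaps. The 46 gaps held 30 peaks of replicate 1, or 3.61 per Mb, and 99 of replicate 2, or 11.9 per Mb. No peak of replicate 1 lay in 31 of the gaps, and 7 had none of either library. None of these peaks had a partner in the other library. Their median widths of 55.5 and 68 bp in replicates 1 and 2 stood beside 66.5 and 91 bp for unpartnered peaks elsewhere on the arm. Since the gaps are defined by the absence of shared regions, the gaps of one replicate were also read against the other list. In the 42 gaps of replicate 1 (7.53 Mb) replicate 2 had 10.2 peaks per Mb, against 118 per Mb elsewhere on the arm (ratio 0.0868, 95% exact interval 0.0682 to 0.109). In the 36 gaps of replicate 2 (5.45 Mb) replicate 1 had 5 peaks, a ratio of 0.0103 (0.00333 to 0.0240), and 32 of these gaps held none. Sequence in gaps of both lists came to 5.19 Mb, or 68.9% of the replicate 1 gap length and 95.3% of the replicate 2 gap length. Both libraries come from the same tissue and the peak positions of one are largely those of the other.

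Counted by 1 Mb bin, regions fell off from 22 Mb on, though unevenly, with a dense group in that stretch described below. The bin from 21 to 22 Mb still held 73, whereas 22 to 23 Mb held 31, 23 to 24 Mb held 8 and the remaining sequence held 2. In all, 41 regions lay beyond 22 Mb, and their density was 0.272 times that of the rest of the arm (0.194 to 0.371). The ratio was 0.360 in replicate 1 (0.278 to 0.459, 68 peaks) and 0.412 in replicate 2 (0.331 to 0.506, 94 peaks). Gaps of at least 100 kb with their midpoint in this stretch came to 81.7% of its length, the first of them starting before 22 Mb, at 21946970. The last region of the arm, ORC3806 (24530187 to 24530919), lay 508.2 kb from its nearest neighbour, the longest gap on the arm. Whether reads could be placed there was not assessed, and poor placement and less binding cannot be told apart.

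Peaks of the single libraries thinned out less than shared ones. Beyond 23 Mb the combined density was 0.110 times that up to 22 Mb (0.0524 to 0.202), and that of all merged peaks was 0.376 times (0.285 to 0.489). For peaks without a partner the ratio was 0.938 in replicate 1 (0.528 to 1.56, 16 peaks) and 0.700 in replicate 2 (0.475 to 0.998, 32 peaks). The share of shared peaks beyond 23 Mb was 38.5% in replicate 1 (20.2 to 59.4) and 23.8% in replicate 2 (12.1 to 39.5). Up to 22 Mb it was 85.1% (83.3 to 86.8) and 66.9% (64.8 to 68.97), so these intervals do not overlap. From 22 to 23 Mb the shares, 83.3% and 63.5%, were within the range of the other bins.

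**Figure D4:**
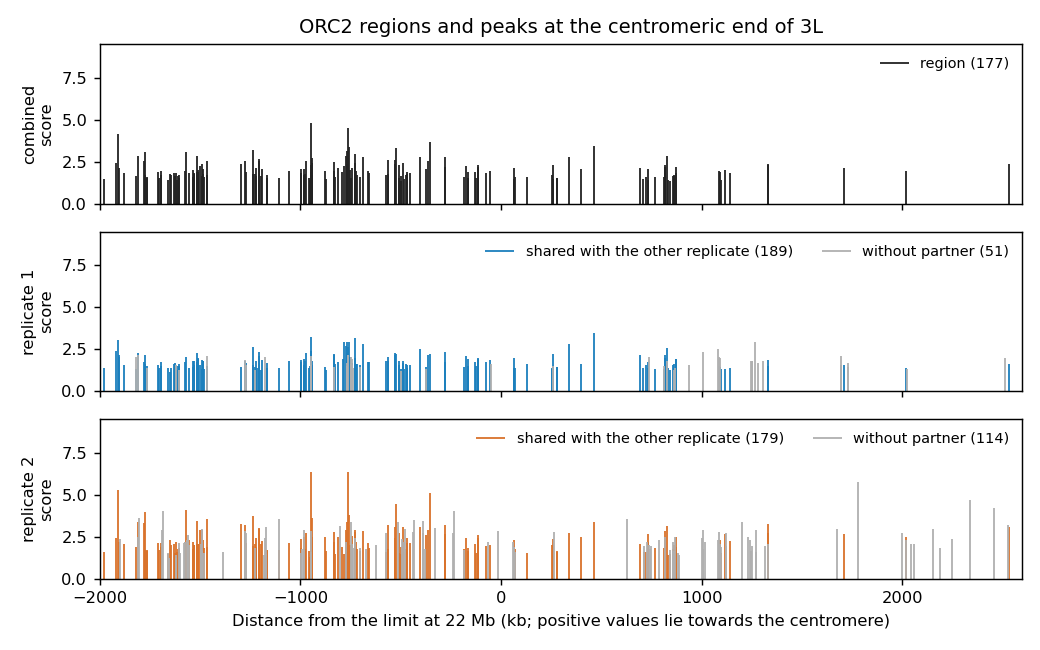
Scores of combined regions and of replicate 1 and 2 peaks from 20 Mb to the end of 3L, against the distance in kb from the limit at 22 Mb; grey lines mark replicate peaks without a partner. Regions thin out to the right of 0, where 41 lie, and the grey peaks continue to the end of the arm.

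The combined regions that remained beyond 22 Mb had a higher median width and a lower median score than those before it. Their median width was 638 bp (quartiles 475 to 1072) against 428.5 bp, and 13 of 41 (31.7%) were 1 kb or wider, against 119 of 1312 (9.07%) up to 22 Mb. Shared peaks of each library gave the same direction, with median widths of 495 and 500 bp beyond 22 Mb in replicates 1 and 2 and 287 and 369 bp before it. Unpartnered peaks did not, with 48 and 44 bp beyond 22 Mb and 66 and 91 bp before it. Among all peaks, shared or not, the median width in replicate 1 was 293 bp beyond 22 Mb and 247 bp before it. In replicate 2 the direction was opposite, with 133 bp beyond 22 Mb and 264 bp before it. The combined regions consist of shared peaks, and sharing rose with width, as described below. Shared peaks are therefore no separate support, and whether the overlap criterion shaped the width difference was not tested. The median score of the combined regions was 1.82 beyond 22 Mb and 2.06 before it, and that of shared peaks was 1.52 against 1.78 in replicate 1 and 2.05 against 2.33 in replicate 2. The score did not follow this direction throughout. Unpartnered peaks had medians of 1.79 beyond 22 Mb and 1.57 before it in replicate 1, and 2.16 in both stretches in replicate 2. The 10 shared replicate 2 peaks beyond 23 Mb had a median of 2.60, above the 2.33 before 22 Mb. The quartiles of the combined scores overlap between the stretches.

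A dense group stood between 22692369 and 22874431, where ORC3779 to ORC3796 made up 18 of the 41 regions. Beyond 23 Mb the 10 regions were ORC3797 to ORC3806. Of these, 3 lay within 10 kb of each other (ORC3797 to ORC3799, from 23087704 to 23096284), ORC3800 (23118808) and ORC3801 (23142309) followed at distances of 22.5 and 22.9 kb, and ORC3802 and ORC3803 (23330939 to 23332865) formed a pair. ORC3804 (23707661 to 23708732), ORC3805 (24021313 to 24022012) and ORC3806 each stood more than 300 kb from any other region. Each of the 10 regions scored higher in replicate 2, with replicate 1 scores from 1.29 to 1.83 and replicate 2 scores from 1.52 to 3.24.

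Replicate support up to 22 Mb moved between 75.0% and 95.2% by bin in replicate 1 and between 52.1% and 78.6% in replicate 2. For the whole arm it is given beside the share in the whole lists, which include 3L itself. Of the replicate 1 peaks of 3L, 84.3% overlapped a replicate 2 peak by at least 1 bp (95% exact binomial interval 82.5 to 86.0), beside 85.1% in the whole list. Of the replicate 2 peaks, 65.9% overlapped one of replicate 1 (63.9 to 67.98), beside 63.1% in the whole list, which lies below that interval. The replicate 1 share of 3L was the lowest of the large arms. It was 85.3% on X, 86.3% on 2L, 87.5% on 2R and 89.0% on 3R (87.4 to 90.4). The replicate 2 share of 3L lay between 61.9% on X and 66.7% on 2L. Merging the 3L peaks gave 2329 separate regions, of which 1353 held both replicates (56.1% in the whole series), 268 replicate 1 alone and 708 replicate 2 alone. Sharing rose with width, which is partly built into a criterion of at least 1 bp of overlap. It was 39.0% and 6.73% for peaks shorter than the reads in replicates 1 and 2, and 99.2% and 99.5% for peaks of 800 bp or more. Of the unpartnered peaks, 78.7% in replicate 1 and 58.6% in replicate 2 had a peak of the other library at most 2 kb away.

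Scores of the 1353 regions ran from 1.21 to 8.51 in the combined list, with a median of 2.05 (quartiles 1.76 to 2.49). The replicate scores of the same regions had a Spearman's rho of 0.66 across regions, which share their libraries and are not independent. The median ratio of replicate 2 to replicate 1 was 1.30, and by 1 Mb bin it moved between 1.20 and 1.46 up to 22 Mb. Score was nearly unrelated to width (rho of -0.09) and to the distance of the nearest region (rho of 0.04).

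The 10 highest-scoring regions were spread over the arm. None lay beyond 22 Mb, a stretch that held just 41 of the 1353 regions. ORC2598 (2409364 to 2409560) came first, scoring 5.40 in the first library and 11.6 in the second. It was followed by ORC3257 (14506416 to 14506681), with 6.01 and 10.4, and ORC3533 (18453455 to 18453878), with 4.86 and 11.2. Of the 10 regions, 8 were narrower than the median region of 432 bp. All 10 scored higher in replicate 2, by ratios from 1.48 to 2.38, above the arm's median ratio of 1.30. This is partly given by the choice. The combined score was the mean of the replicate scores in 1336 of the 1353 regions, and scores ran higher in replicate 2. A ranking by it therefore leans towards regions with high replicate 2 scores.

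ORC3182 (12828608 to 12828900) scored 5.94 and 8.77 and had a neighbour 1680 bp away. ORC2680 (3752784 to 3753056) scored 4.31 and 10.3, and ORC2935 (8742057 to 8742251) scored 4.36 and 9.52. ORC2782 (5790461 to 5790635) scored 4.85 and 8.20. The others were ORC3463, described above, ORC2627 (2851802 to 2852138), with 4.02 and 8.43, and ORC2762 (5505011 to 5505476), with 4.52 and 7.73. In replicate 1 alone, 6 of the 10 were among the first 10 of the arm, and in replicate 2, 9 were. The combined ranking leans towards replicate 2, as said above.

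Among these 10, ORC3533, ORC2680, ORC2627 and ORC2762 stood on the border of a gap of at least 100 kb, as did 90 of all 1353 regions (6.65%). Of the first 10 by replicate 1 score 1 was on such a border, and of the first 10 by replicate 2 score 4 were. The border regions as a whole were close to the others, with a median replicate 1 score of 1.83 (quartiles 1.53 to 2.13) against 1.77 (1.53 to 2.10). In replicate 2 the medians were 2.47 (2.05 to 3.06) and 2.33 (1.89 to 2.88). The high scores at gap borders were therefore those of a few regions.

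**Figure D5:**
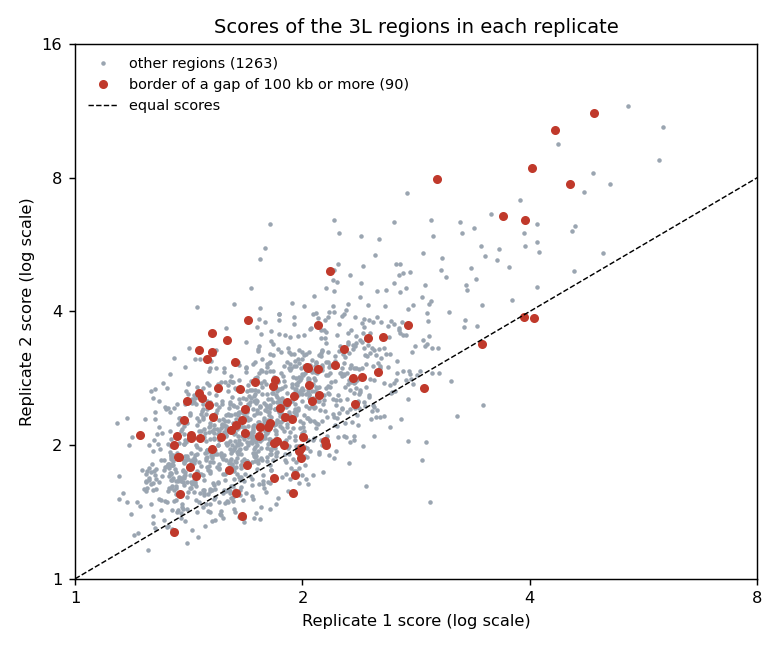
Replicate 2 score against replicate 1 score (both on log axes) for the 1353 regions of 3L, with the 90 regions on the border of a gap of at least 100 kb in red. Most points lie above the dashed line of equal scores, and the red points are spread through the grey ones, with a few among the highest.

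The widest regions did not carry the highest scores. ORC2660 (3247811 to 3252314) was 4504 bp wide and scored 2.35 in replicate 1 and 3.89 in replicate 2, and ORC3683 (20775216 to 20779407) was 4192 bp wide and scored 1.79 and 2.44. ORC2970 (9374648 to 9378035, 3388 bp) scored 2.12 and 3.28, ORC2849 (7352177 to 7355482, 3306 bp) scored 1.76 and 1.36, and ORC3332 (15646576 to 15649620, 3045 bp) scored 2.51 and 4.44. On the whole arm 132 regions (9.76%) reached 1 kb. Of the 1353 regions, 1257 consisted of 1 peak from each library, and the largest number of peaks in a region was 5.

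Set beside the other large arms, 3L as a whole did not differ in density beyond counting error. Its density was 1.02 times that of 2L, 2R, 3R and X together (0.961 to 1.08). Up to 22 Mb it was 1.10 times theirs (1.04 to 1.17), with ratios of 1.13 in replicate 1 (1.07 to 1.19) and 1.06 in replicate 2 (1.01 to 1.11). The other arms were counted with their own centromeric ends, so this ratio is not like for like. The median width of 432 bp lay between those of X (426 bp) and 3R (446 bp), and the median score of 2.05 between those of 3R (1.96) and X (2.19). Gaps of at least 100 kb took up 33.9% of 3L, against 25.5% to 36.9% of the other arms. It had 6 gaps over 300 kb, against 0 on 2R, 2 on 3R, 3 on 2L and 4 on X. Of the 6 on 3L, 3 lay beyond 23 Mb, in the sparse centromeric end. The gaps of the other arms were not split in this way, so these counts are not like for like either. The fullest bin of 1 Mb on 3L held 91 regions, where the fullest bins of the others held 73 to 82. These differences between single arms were not tested.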

How the data were processed

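Peaks were called with PeakSeq on release 5.1 of the FlyBase genome, per the file headers and the lists' own source field. The sources used here do not give the aligner, the caller's version or thresholds, or its control. The unit is the authors' score per peak, deposited without a unit, used to describe and rank peaks. Per the labels' protocols, fragments of 150 to 200 bp were sequenced, with reads of 36 nt by the design text. Depth is unknown, as the lists contain no reads.

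The 3L combined regions had the limits of overlapping peaks of both replicates for 1353 of 1353. A region's replicate score is the mean over its peaks of that replicate. Regions were placed by midpoint. Arm length ran from position 1 to the last peak. Gaps lie between neighbouring regions, chromosome ends left out, and were counted whole in the stretch that holds their midpoint. Intervals (95%, exact) are Poisson for densities, Clopper-Pearson for shares and conditional binomial for density ratios. With 2 libraries of 1 group, no test was made. Functions were tested on simulated peaks (Python 3.11.15, scipy 1.17.1).

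Named regions were the 10 highest-scoring and 5 widest of the arm, the 5 highest-scoring and the widest from 17 to 18 Mb, the 5 fullest windows, gaps of 200 kb or more with their borders, the first and last region and those beyond 23 Mb; others were chosen after their values were seen. Members, stretches and lists were chosen with earlier results of these data known. The annotation at hand describes release 6 and supplied gene names and arms only.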

Additional observations from a re-analysis of the deposited data

Results flagged for a closer look

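The scaffold 3LHet, which holds heterochromatic sequence assigned to 3L but kept apart from the arm, carried ORC2 calls that the comparisons along and between the arms do not use, although they are part of the whole-list totals and shares. The combined list had 14 regions on it, and replicates 1 and 2 had 39 and 69 peaks, over the 2.55 Mb reached by any peak. That is 5.50 regions per Mb (95% exact Poisson interval 3.00 to 9.22), close to the 6.53 per Mb of the arm beyond 23 Mb. Of its peaks, 14 in replicate 1 and 21 in replicate 2 overlapped one of the other library, and its regions had a median width of 778 bp.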

How the results depend on the processing

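Of 58 recomputed values, 18 stayed within a tolerance and 40 moved beyond it. Among the 18, the value with the arm ended at its last combined region could not move, as that region already set the end used. The tolerance was the exact 95% interval for the shares of shared peaks, the share in runs, the density and the density ratios, 1.5 times for the number of gaps, and 1 SD between the replicate lists for the gap share (6.02 percentage points), the median score (0.370) and the variance-to-mean ratio (0.0879). The density ratios recomputed here stayed above 1 for 17 to 18 Mb and below 1 beyond 22 Mb. Share of replicate 1 and of replicate 2 peaks that were shared: 53.8% and 44.2% with reciprocal overlap of 50%, 88.0% and 70.7% with midpoints within 500 bp, 66.9% and 54.2% among peaks at or above the median score, 68.5% and 68.7% with equal list lengths, and 88.3% and 69.6% without peaks shorter than the reads. With one replicate left out in turn, the density was 69.7 to 84.8 per Mb, the ratio for 17 to 18 Mb 1.47 to 1.84 and that beyond 22 Mb 0.360 to 0.412. Gaps then took up 22.2 to 30.7% of the arm and numbered 36 to 42, the median score was 1.75 to 2.27, the variance-to-mean ratio 5.09 to 5.22 and the share in runs of 5 or more 55.4 to 65.8%. The union of both lists gave 94.9 per Mb, a ratio beyond 22 Mb of 0.452, 21.2% in gaps, a variance-to-mean ratio of 6.16 and 71.6% in runs. Regions at or above the median score gave 27.4 per Mb, 0.185, 50.5%, 2.66 and 15.6%, with a median score of 2.49; fewer regions enter by construction. Moving the limit to 21 or 23 Mb gave ratios of 0.547 and 0.112. Gap minima of 50 and 200 kb gave 111 and 11 gaps over 51.97% and 13.8% of the arm. Windows of 50 and 200 kb gave variance-to-mean ratios of 3.01 and 4.20, and the arm up to 22 Mb 3.39. Runs joined within 5 and 20 kb held 17.5% and 74.4% of regions. The cause of the other shifts was not tested. No paired analysis was possible because peak lists of a single group were analysed. The unknown depth limits every count: fewer calls and fewer bound sites cannot be told apart.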

Other observations

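The highest score of any 3L peak in either library belonged to a peak outside the combined list, singled out after its values were seen. Rep2_ORC4770, at 10456444 to 10456471, scored 13.6 in replicate 2 and was 28 bp wide. The nearest replicate 1 peak, Rep1_ORC3746 at 10456392 to 10456398, was 7 bp wide and lay 45 bp away. It scored 3.18, the highest of the 268 unpartnered replicate 1 peaks of the arm. Because the peaks do not overlap, the site is missing from the combined list and lies within a gap of 151.7 kb.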
